A study of Mus musculus with 6 samples.

Results

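The insulin, PI3K-AKT and mTOR pathway core was followed as 33 genes, from the insulin receptor to the translation repressors and FoxO factors at its end. The genes were chosen by name, as core components of the pathway, and without the matrix genes that pathway databases add to it. All 33 were found by symbol among the 25160 features of the count table, each on 1 feature, and all 33 were among the 15925 features that passed the filter for low counts and were tested. RNA was sequenced from the fourth mammary glands of 3 metformin-treated and 3 control female FVB/N mice, an inbred strain, all of wild-type genotype (WT in the labels), with the lymph nodes removed and 1 library per mouse. The metformin group received 200 mg/kg each day, injected intraperitoneally, starting at 8 weeks of age and ending at 18 weeks. The control group received saline over the same 10 weeks. The samples were whole glands, labelled as heterogenous mammary cells, so fewer cells of a type and less RNA per cell cannot be told apart in any value below.

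Insulin bound to its receptor leads to phosphorylation of the insulin receptor substrates, which recruit PI3K to the membrane. The lipid made by PI3K brings PDK1 and AKT together, and AKT then phosphorylates the TSC complex, FoxO factors and GSK3. With TSC held off, the GTPase Rheb activates mTORC1, the mTOR complex that drives protein synthesis through S6 kinase and the 4E-BPs, while the Rag GTPases bring mTORC1 to the lysosome when amino acids are present. In the mammary gland the pathway serves growth of the ducts, milk synthesis and lipid storage in the surrounding adipocytes, and metformin is known as an activator of AMPK, a kinase that restrains mTORC1. Most of this control is by phosphorylation, which RNA counts do not measure.

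Only Irs2 of the 33 genes passed the criteria of the study, called the thresholds from here on, which ask for a 1.5-fold difference and an unadjusted p under 0.01. It was lower in metformin-treated than in control glands, with a log2 fold change of -0.75 (SE 0.22). Foxo3 was also lower (log2 fold change -0.55, SE 0.20) and Eif4ebp1 was higher (log2 fold change 0.51, SE 0.16), both at an unadjusted p under 0.05 that missed the thresholds. The other 30 genes, among them Insr, Akt1 and Mtor, had an unadjusted p above 0.05. Over all tested genes 1.7% were past the thresholds, 1.28% lower and 0.421% higher, and 7.53% had an unadjusted p under 0.05, 4.85% lower and 2.68% higher, against 9.09% of the members. At an adjusted p under 0.05 edgeR called 0 members and 0 of all genes, where 1199 genes had an unadjusted p under 0.05. DESeq2 and limma-voom also called 0 members, DESeq2 with 200 calls over all genes and limma-voom with 0.

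**Figure D1:**
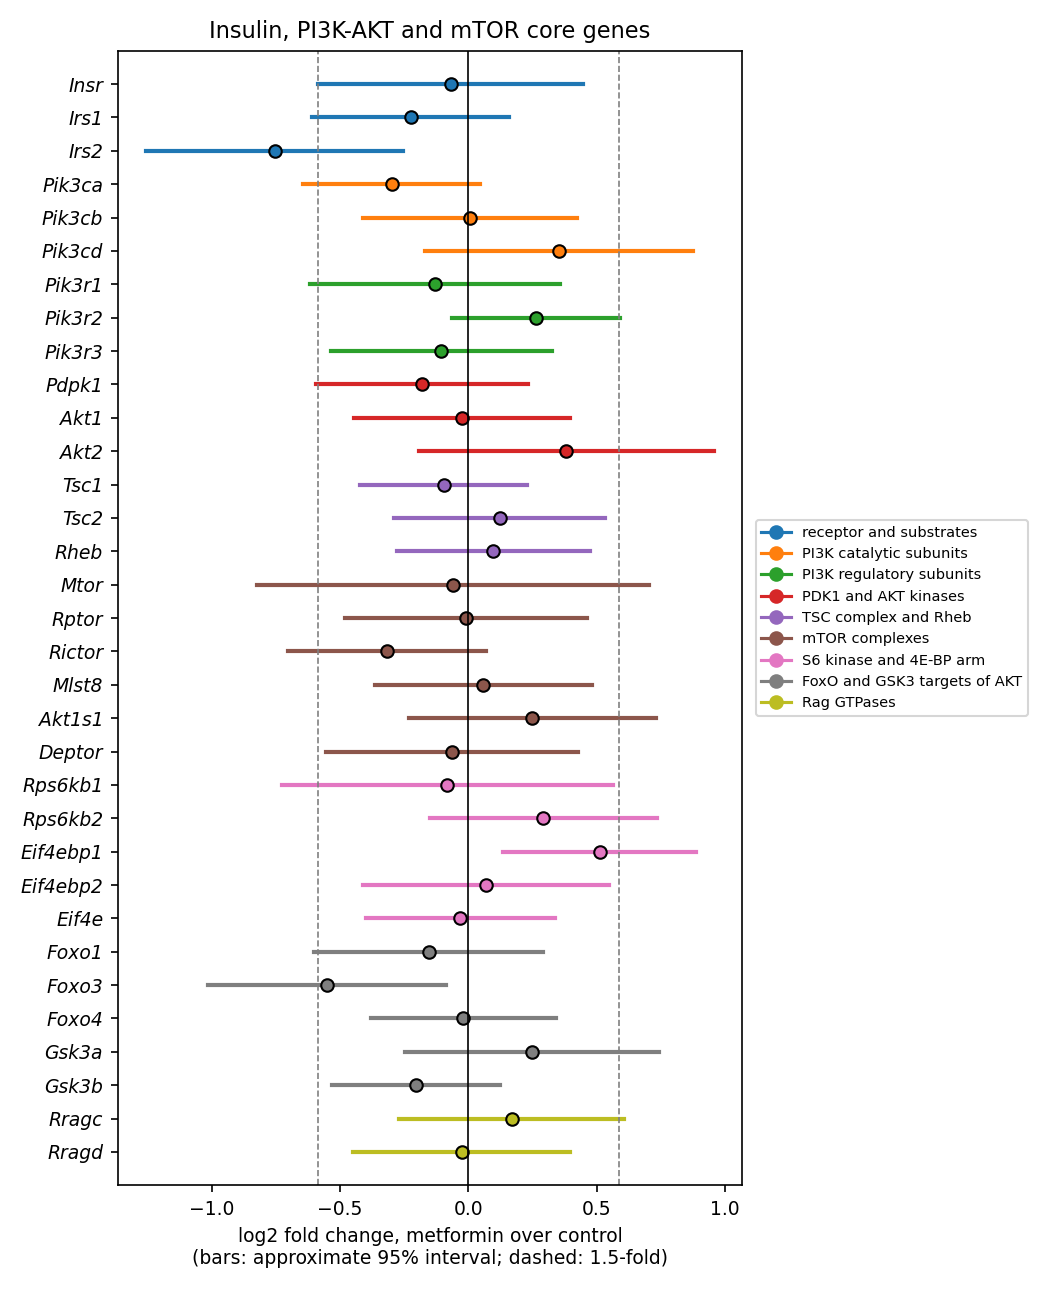
Log2 fold change of each of the 33 genes, metformin over control, on the horizontal axis, with genes down the page in order of role. Points are edgeR estimates, bars their approximate 95% intervals (3 mice per group), and dashed lines mark a 1.5-fold change. The intervals of Irs2, Foxo3 and Eif4ebp1 are the 3 that do not reach 0, and 14 intervals lie wholly between the dashed lines.

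The 33 genes together were centred near 0. Their median log2 fold change was -0.03, beside 0.01 over all tested genes, and they ranged from -0.75 for Irs2 to 0.51 for Eif4ebp1. Of the members 20 were lower and 13 were higher, a lower share of 60.6% beside 48.7% of all tested genes. That split rested on values near 0, and 14 of the 33 were lower without metformin-treated mouse 3 and 15 without control mouse 1. The groups did not overlap in 7 members (21.2%), 5 lower and 2 higher, where 13.2% of all tested genes had groups that did not overlap, 7.01% lower and 6.24% higher. The approximate 95% interval lay within a 1.5-fold change in either direction for 14 members, among them Akt1, Tsc1, Tsc2, Rheb, Rptor, Mlst8, Deptor, Eif4e and Eif4ebp2. For Mtor it ran from a fold of 0.566 to 1.63 and for Akt2 from 0.875 to 1.94, so the data of 3 mice per group did not settle whether either gene differed by more than 1.5-fold.

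Total counts per library were between 37705492 and 47370885 in metformin-treated mice and between 35375365 and 47056181 in control mice, and no member had fewer than 324 counts in any library. Control mouse 3 stood apart from the other controls, and its correlation over genes averaged 0.962 with the metformin-treated mice and 0.948 with the other controls. Its milk protein genes were at a low level, so that the summed level of 6 of them was 223 to 771 CPM in metformin-treated mice, and 40080, 34629 and 524 CPM in control mice 1 to 3. Epithelial markers, 10 of 12 lower, summed to 676 to 1039 CPM in metformin-treated mice, against 1012 to 1878 CPM in control mice. Adipocyte markers, 10 of 10 higher, summed to 16641 to 22620 CPM in metformin-treated mice, against 13496 to 16414 CPM in control mice. Skeletal muscle markers, 7 of 8 higher, summed to 11791, 24100 and 16974 CPM in metformin-treated mice 1 to 3, against 13683 to 14956 CPM in control mice. Among these 4 lists only Wap, a milk protein gene, was at 0 in any library. CPM are counts scaled to library size after TMM normalization throughout.

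Irs2 and Irs1 are the substrates that carry the signal from the insulin receptor to PI3K, and their promoters are shown because Irs2 had the largest difference among the members. Of the 28 members with a RefSeq promoter window (250 bases before to 50 after the start, GRCm38.p6), they were the only 2 that held both an E-box and the core of an insulin response element. The E-box is bound by basic helix-loop-helix factors such as TFE3, and the insulin response element by FoxO factors. Both sequences run 5′ to 3′ on the gene's own strand, with every match to CACGTG or to CAAAACA on either strand in capitals.
Irs2, chr8:11008880-11009179, minus strand: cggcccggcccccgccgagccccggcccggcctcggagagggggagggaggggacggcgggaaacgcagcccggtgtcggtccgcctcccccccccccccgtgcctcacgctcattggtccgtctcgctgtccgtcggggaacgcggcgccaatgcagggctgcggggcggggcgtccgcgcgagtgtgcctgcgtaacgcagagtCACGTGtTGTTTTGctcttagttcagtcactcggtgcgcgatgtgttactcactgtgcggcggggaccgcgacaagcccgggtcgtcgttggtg
Irs1, chr1:82291390-82291689, minus strand: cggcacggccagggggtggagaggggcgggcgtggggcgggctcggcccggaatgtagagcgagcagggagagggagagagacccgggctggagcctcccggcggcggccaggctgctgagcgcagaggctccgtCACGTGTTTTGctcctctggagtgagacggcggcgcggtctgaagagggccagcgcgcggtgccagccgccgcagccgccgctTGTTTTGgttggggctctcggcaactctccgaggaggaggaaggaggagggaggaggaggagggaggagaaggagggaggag

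In Irs2 the E-box covered bases 207 to 212 of the window and the insulin response element core bases 214 to 220. In Irs1 the E-box covered bases 136 to 141 and shared its last bases with an insulin response element core at 140 to 146, and another core lay at 219 to 225. Among all 32851 promoter windows 7.15% held the E-box, 6.28% the insulin response element core and 0.408% both. The 28 members had 39 of these windows, and Eif4e, Rheb and Rragc also held the E-box. The forkhead motif GTAAACA, present in 3.65% of windows, was matched in Akt1 alone among the members. These matches are a description of the letters and not of binding.

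The receptor Insr was at 105, 107 and 88.5 CPM in metformin-treated mice 1 to 3, against 95.3, 82.0 and 138 CPM in control mice 1 to 3. The groups overlapped and control mouse 3 was the highest of the 6 (log2 fold change -0.07, SE 0.22). Irs1 was at 101, 87.5 and 98.0 CPM in metformin-treated mice, against 98.3, 129 and 108 CPM in control mice, with metformin-treated mouse 1 above control mouse 1 (log2 fold change -0.23, SE 0.16). Of the 9144 exonic bases of Irs1, 2822 are shared with the opposite-strand gene Gm9747, so its level is uncertain where strand was not used.

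Irs2 (ENSMUSG00000038894, chromosome 8 from 10984681 to 11008458 in GRCm38) was at 30.4, 29.3 and 39.1 CPM in metformin-treated mice 1 to 3, against 65.7, 59.8 and 41.2 CPM in control mice 1 to 3. The groups did not overlap, but control mouse 3 lay just above the highest metformin-treated mouse. The mean was 32.9 ± 5.39 CPM in metformin-treated and 55.6 ± 12.8 CPM in control mice (SD, n = 3 each), a fold of 0.593 with an approximate 95% interval of 0.419 to 0.839 (edgeR adjusted p = 0.539). The adjusted p ranged from 0.107 to 0.873 over the 17 alternatives, and the direction was the same in all 17. Without metformin-treated mouse 1, metformin-treated mouse 2, control mouse 1 or control mouse 2 the log2 fold change was -0.72, -0.68, -0.62 and -0.70 in that order, and the gene was no longer past the thresholds. Nor was it with the replicate block (-0.74) or log2(FPKM + 1) without a filter (-0.70), so that it was past them in 11 of 17 alternatives. Without control mouse 3 it was -0.93 (edgeR adjusted p = 0.107).

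Irs2 was high in the 2 control mice with abundant milk protein transcripts and lower in the other 4 mice. Metformin-treated mouse 3 and control mouse 3, with summed milk protein levels of 771 and 524 CPM, had 39.1 and 41.2 CPM of Irs2. The sum of the epithelial markers gave another order. Metformin-treated mouse 1 and control mouse 1 had summed levels of 1039 and 1015 CPM beside 30.4 and 65.7 CPM of Irs2. Single epithelial markers were split in these mice. Epcam, Krt8, Cdh1, Esrp1, Ehf, Krt5 and Krt14 were lower in metformin-treated mouse 1, as Irs2 was. Krt18, Krt7, Krt19, Cldn3 and Cldn4 were higher in it. Ehf was at 21.2 and 78.5 CPM and Krt7 at 64.3 and 24.0 CPM. The part of milk-producing epithelium in the Irs2 difference was not tested. In deposited FPKM, a unit that corrects for transcript length, Irs2 made up 33.2 ± 3.21% of the Irs1 and Irs2 sum in metformin-treated and 41.6 ± 6.91% in control mice, and the groups overlapped.

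**Figure D2:**
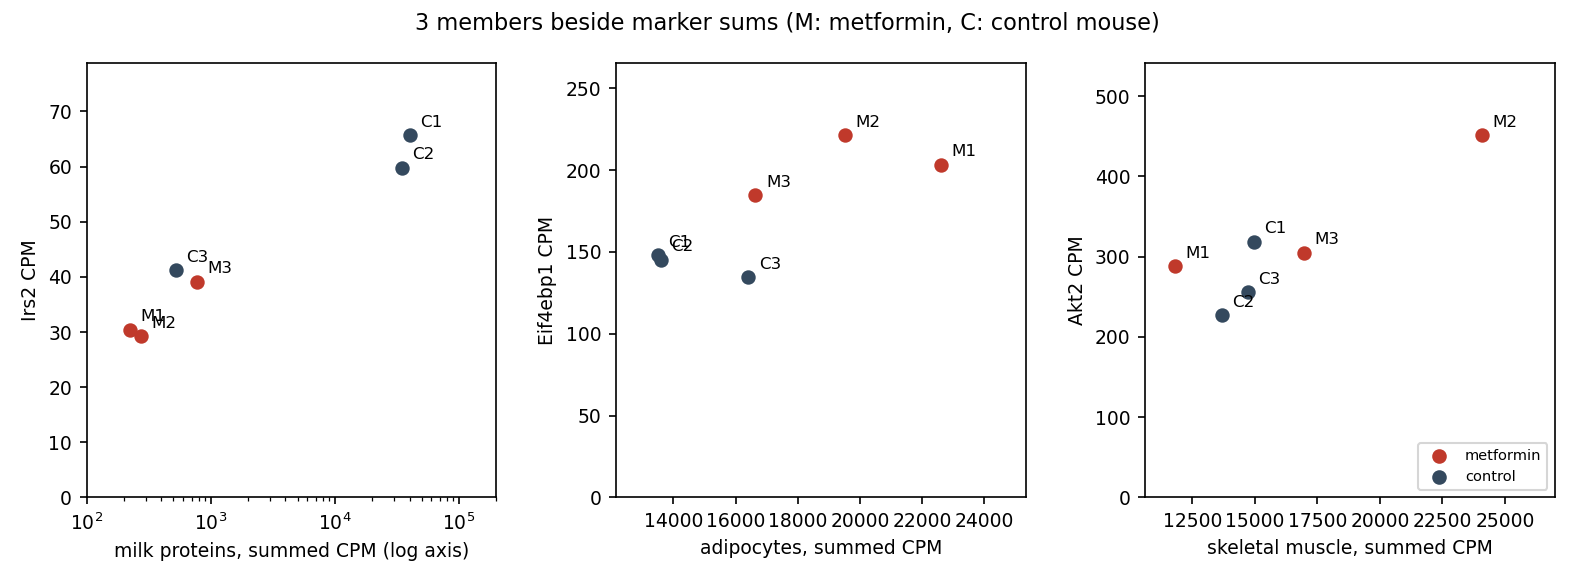
Level of Irs2, Eif4ebp1 and Akt2 (CPM, vertical axes from 0) in each mouse against the summed CPM of milk protein, adipocyte and skeletal muscle markers. The milk protein axis is logarithmic, and M and C mark metformin-treated and control mice. Control mice 1 and 2 stand alone at the right of the milk protein plot with the highest Irs2, and metformin-treated mouse 2 has both the highest muscle sum and the highest Akt2.

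Among the catalytic subunits of PI3K, Pik3ca encodes p110alpha, the form that insulin signaling mainly uses. It was at 47.3, 42.8 and 40.9 CPM in metformin-treated mice, against 52.0, 49.1 and 60.2 CPM in control mice. The groups did not overlap, the difference was small (log2 fold change -0.30, SE 0.15) and the test did not pass (edgeR adjusted p = 0.714). Pik3cb, p110beta, averaged 62.6 ± 12.5 CPM in metformin-treated and 62.3 ± 4.60 CPM in control mice (SD, n = 3 each). Pik3cd, p110delta, the form of white blood cells, was at 9.89, 12.7 and 16.6 CPM in metformin-treated mice, against 9.86, 10.0 and 10.7 CPM in control mice (log2 fold change 0.35, SE 0.22). Its highest value was in metformin-treated mouse 3, the mouse that also had the highest sum of 8 macrophage markers, 1226 CPM against 427 to 927 CPM in the other 5 mice. Metformin-treated mouse 2 had the lowest sum, 427 CPM, but its Pik3cd, 12.7 CPM, was above that of every control mouse. The part of these cells was not tested.

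The regulatory subunits hold the catalytic subunits and bind the phosphorylated substrates. Pik3r1, the p85alpha gene, was the most abundant of the 3 and made up 74.0 ± 2.01% of their summed FPKM in metformin-treated and 78.4 ± 2.39% in control mice, with overlap between the groups. Pik3r2, the p85beta gene, was at 48.7, 45.5 and 52.2 CPM in metformin-treated mice, against 39.8, 44.5 and 37.6 CPM in control mice. The groups did not overlap and the difference was 0.26 on the log2 scale (SE 0.14, edgeR adjusted p = 0.726). The least abundant, Pik3r3, and Pik3r1 had log2 fold changes of -0.11 and -0.13. In FPKM the Pik3r2 groups overlapped, with a mean of 14.2 ± 2.25 in metformin-treated and 12.4 ± 1.42 in control mice (SD, n = 3 each).

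Pdpk1, the kinase PDK1 that activates AKT, averaged 49.3 ± 2.77 CPM in metformin-treated and 55.9 ± 11.3 CPM in control mice (SD, n = 3 each). Akt1 was at 127, 165 and 139 CPM in metformin-treated mice, against 160, 152 and 126 CPM in control mice (log2 fold change -0.03, SE 0.18). The groups covered nearly the same range. Akt2, the form that mediates glucose uptake in fat and muscle, was at 288, 451 and 305 CPM in metformin-treated mice, against 319, 227 and 255 CPM in control mice (log2 fold change 0.38, SE 0.25). Without metformin-treated mouse 2, the highest mouse and the one with the highest muscle markers, the log2 fold change of Akt2 was 0.15. Metformin-treated mouse 1 had the lowest muscle marker sum, 11791 CPM, but more Akt2 than control mice 2 and 3. The part of muscle was not tested. Akt2 was the most abundant of the 33 genes by FPKM, at 94.0 ± 11.4 in metformin-treated and 77.0 ± 7.50 in control mice. In FPKM the Akt2 groups did not overlap, with 82.2 in metformin-treated mouse 1 and 81.9 in control mouse 1, though in CPM they did. Its share of the Akt1 and Akt2 sum was 65.7%, 67.6% and 65.1% in metformin-treated mice against 61.4%, 55.3% and 62.6% in control mice, so these shares did not overlap. The share is a description that was chosen after the values were seen.

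Tsc1 and Tsc2 form the complex that holds Rheb inactive, and none of the 3 genes separated the groups. Tsc1 averaged 21.9 ± 0.203 CPM in metformin-treated and 23.4 ± 1.68 CPM in control mice (SD, n = 3 each). Tsc2, its partner, averaged 75.2 ± 13.3 CPM in metformin-treated and 69.2 ± 5.41 CPM in control mice. The GTPase Rheb averaged 115 ± 11.1 CPM in metformin-treated and 107 ± 11.2 CPM in control mice. Their log2 fold changes lay between -0.10 and 0.12, and all 3 intervals lay within a 1.5-fold change.

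Mtor, the kinase at the centre of both complexes, was at 62.6, 116 and 87.4 CPM in metformin-treated mice, against 136, 67.7 and 73.3 CPM in control mice (log2 fold change -0.06, SE 0.33). Its spread within a group, 1.85-fold in metformin-treated and 2.01-fold in control mice, was larger than the difference between the groups. Without control mouse 1 its log2 fold change was 0.33, and without metformin-treated mouse 2 it was -0.30. Rictor, the scaffold of mTORC2, was at 17.7, 17.6 and 14.7 CPM in metformin-treated mice, against 18.5, 20.7 and 23.0 CPM in control mice. In CPM the groups did not overlap (log2 fold change -0.32, SE 0.17, edgeR adjusted p = 0.724), and Rictor had the lowest mean FPKM of the 33 genes, 1.87. In FPKM the Rictor groups overlapped, with 1.7186 in metformin-treated mouse 1 and 1.7179 in control mouse 1. Rptor, the scaffold of mTORC1, averaged 42.4 ± 6.39 CPM in metformin-treated and 42.7 ± 9.42 CPM in control mice (SD, n = 3 each). Mlst8, a subunit of both complexes, Akt1s1, which encodes the inhibitor PRAS40, and Deptor, an inhibitor of both complexes, had log2 fold changes of 0.06, 0.25 and -0.07. All 3 had groups that overlapped. Of the exonic bases of Mlst8 22.5% are shared with other genes, and of those of Pik3r3 24.3%, so both levels are uncertain.

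**Figure D3:**
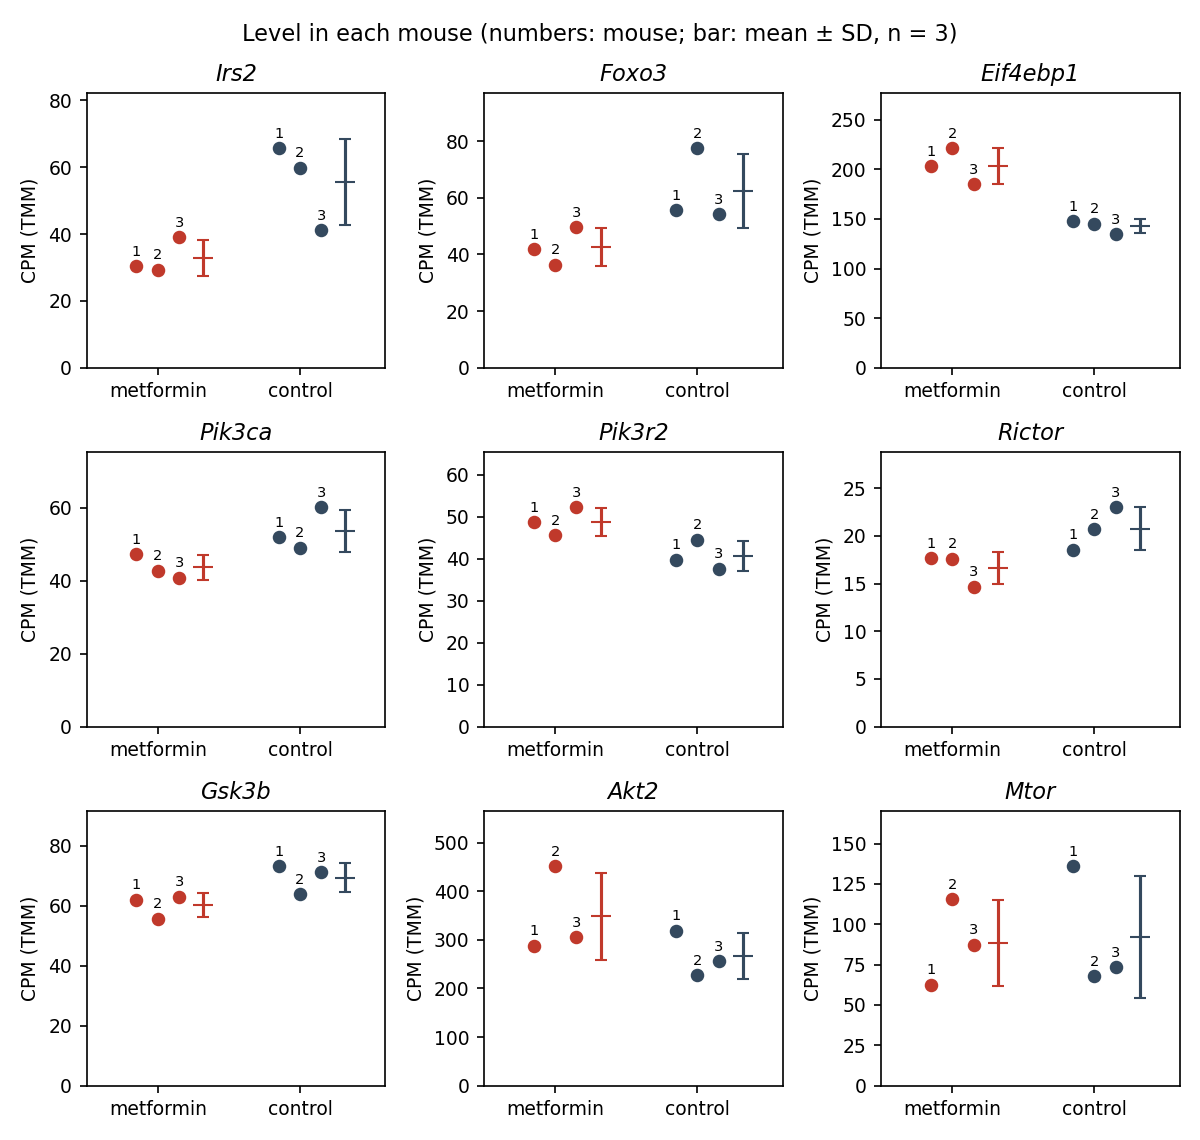
CPM after TMM normalization in each mouse (vertical axes from 0) for 9 of the 33 genes, with the metformin group left of the control group. Numbers beside the points are the mouse numbers and bars give the mean ± SD of 3 mice. The groups do not overlap for Irs2, Foxo3, Eif4ebp1, Pik3ca, Pik3r2, Rictor and Gsk3b, and overlap for Akt2 and Mtor.

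Eif4ebp1 (ENSMUSG00000031490, chromosome 8 from 27260329 to 27276674 in GRCm38) encodes 4E-BP1, which holds the cap-binding protein eIF4E until mTORC1 phosphorylates it. It was at 203, 221 and 185 CPM in metformin-treated mice 1 to 3, against 148, 145 and 134 CPM in control mice 1 to 3. The lowest metformin-treated mouse lay above the highest control mouse by more than the whole range of the controls. The mean was 203 ± 18.2 CPM in metformin-treated and 143 ± 7.13 CPM in control mice (SD, n = 3 each), a fold of 1.43 with an approximate 95% interval of 1.10 to 1.85 (edgeR adjusted p = 0.572). The unadjusted p was under 0.05 in 16 of 17 alternatives, the exception being the fit without metformin-treated mouse 2 (log2 fold change 0.45). Its adjusted p ranged from 0.0759 with DESeq2 to 0.885.

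The separation of Eif4ebp1 was also present per length, at 92.4, 91.0 and 91.3 FPKM in metformin-treated mice and 64.0, 70.6 and 69.3 FPKM in control mice. Its paralog Eif4ebp2 was at 256, 302 and 276 CPM in metformin-treated mice, against 297, 290 and 208 CPM in control mice, with overlap (log2 fold change 0.07, SE 0.21). By FPKM, Eif4ebp1 made up 67.9 ± 1.84% of the sum of both in metformin-treated and 61.1 ± 3.54% in control mice. Eif4e, the cap-binding protein itself, averaged 83.8 ± 8.57 CPM in metformin-treated and 85.6 ± 8.83 CPM in control mice (SD, n = 3 each). The ratio of the summed FPKM of both 4E-BPs to that of Eif4e was 8.38, 8.83 and 9.19 in metformin-treated mice and 6.84, 8.05 and 5.57 in control mice, again a description chosen after the values were seen.

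The adipocyte marker sum was also higher in each metformin-treated mouse than in any control, but its order within the groups was not that of Eif4ebp1. Control mouse 3 had the highest sum of the controls and the lowest CPM of Eif4ebp1. Metformin-treated mouse 1 had the highest sum while mouse 2 had the highest CPM of Eif4ebp1. In FPKM Eif4ebp1 was instead highest in metformin-treated mouse 1, at 92.4, and lowest in control mouse 1, at 64.0. Single adipocyte markers also differed in order. Plin1, Cidec, Fabp4 and Lipe were highest in metformin-treated mouse 2, Retn and Cfd in metformin-treated mouse 1, and Adipoq, Lep, Pparg and Plin4 in control mouse 3. The groups did not overlap for Plin1 and Cidec, both higher in metformin-treated mice, as for Eif4ebp1. At nearly equal adipocyte marker sums, 16641 CPM in metformin-treated mouse 3 and 16414 CPM in control mouse 3, Eif4ebp1 was at 185 and 134 CPM. Plin1, Cidec, Retn and Cfd were higher in that metformin-treated mouse, and the other adipocyte markers were higher in that control mouse. That pair of mice was chosen after the values were seen, and the part of adipocytes was not tested. The S6 kinases, which phosphorylate ribosomal protein S6, did not separate the groups. Rps6kb1 was at 61.1, 44.6 and 28.0 CPM in metformin-treated mice, against 42.1, 44.5 and 54.9 CPM in control mice, with a 2.18-fold spread among the metformin-treated mice. Rps6kb2 averaged 19.5 ± 2.20 CPM in metformin-treated and 16.0 ± 2.95 CPM in control mice (log2 fold change 0.29, SE 0.19), and 1224 of its 5167 exonic bases are shared with the genes Ptprcap and Coro1b. Without control mouse 2 the log2 fold change of Rps6kb2 was 0.46 with an unadjusted edgeR p under 0.05, which no other alternative gave.

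Foxo3 (ENSMUSG00000048756, chromosome 10 from 42181841 to 42276755 in GRCm38) encodes a forkhead factor that AKT keeps out of the nucleus. It was at 41.9, 36.4 and 49.6 CPM in metformin-treated mice 1 to 3, against 55.5, 77.4 and 54.3 CPM in control mice 1 to 3. All 3 metformin-treated mice lay below all 3 controls, with control mouse 2 far above the other 5 mice. The mean was 42.6 ± 6.64 CPM in metformin-treated and 62.4 ± 13.0 CPM in control mice (SD, n = 3 each), a fold of 0.683 with an approximate 95% interval of 0.495 to 0.942 (edgeR adjusted p = 0.621, range 0.331 to 0.910 over the alternatives). Its unadjusted p was under 0.05 in 12 of 17 alternatives. The exceptions were the replicate block (log2 fold change -0.54), log2(FPKM + 1) without a filter (-0.53) and 3 fits with a mouse left out. Without control mouse 2 the log2 fold change was -0.36, without metformin-treated mouse 1 it was -0.56 and without metformin-treated mouse 2 it was -0.45. Control mouse 2 also had the highest epithelial marker sum, 1878 CPM, and metformin-treated mouse 2 had the lowest sum, 676 CPM, and the lowest Foxo3. Metformin-treated mouse 1 and control mice 1 and 3 had similar sums of 1039, 1015 and 1012 CPM. Their Foxo3 was at 41.9, 55.5 and 54.3 CPM in that order. The part of epithelium was not tested. In FPKM the groups overlapped, since metformin-treated mouse 3 had 7.17 and control mouse 1 had 7.01.

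The other FoxO genes did not show the difference of Foxo3. Foxo1 was at 78.8, 67.4 and 92.8 CPM in metformin-treated mice, against 74.0, 87.9 and 104 CPM in control mice, with overlap (log2 fold change -0.15, SE 0.19). Foxo4 averaged 50.8 ± 5.85 CPM in metformin-treated and 51.5 ± 5.22 CPM in control mice (SD, n = 3 each). Whether Foxo3 differed from Foxo1 or Foxo4 in its response was not tested. Of the GSK3 kinases, which AKT inhibits, Gsk3b was at 62.0, 55.6 and 63.0 CPM in metformin-treated mice, against 73.1, 63.8 and 71.1 CPM in control mice. The groups were apart by less than 1 CPM at their nearest (log2 fold change -0.20, SE 0.14, edgeR adjusted p = 0.768). Gsk3a averaged 110 ± 25.0 CPM in metformin-treated and 92.5 ± 14.4 CPM in control mice, and 820 of its 2900 exonic bases are shared with an opposite-strand gene.

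The Rag GTPases Rragc and Rragd averaged 148 ± 20.7 and 30.4 ± 6.05 CPM in metformin-treated mice, against 132 ± 19.4 and 30.9 ± 3.01 CPM in control mice (SD, n = 3 each). By FPKM, Rragc made up 90.3 ± 0.403% of the sum of both in metformin-treated and 89.0 ± 1.43% in control mice. The groups overlapped in both genes.

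**Figure D4:**
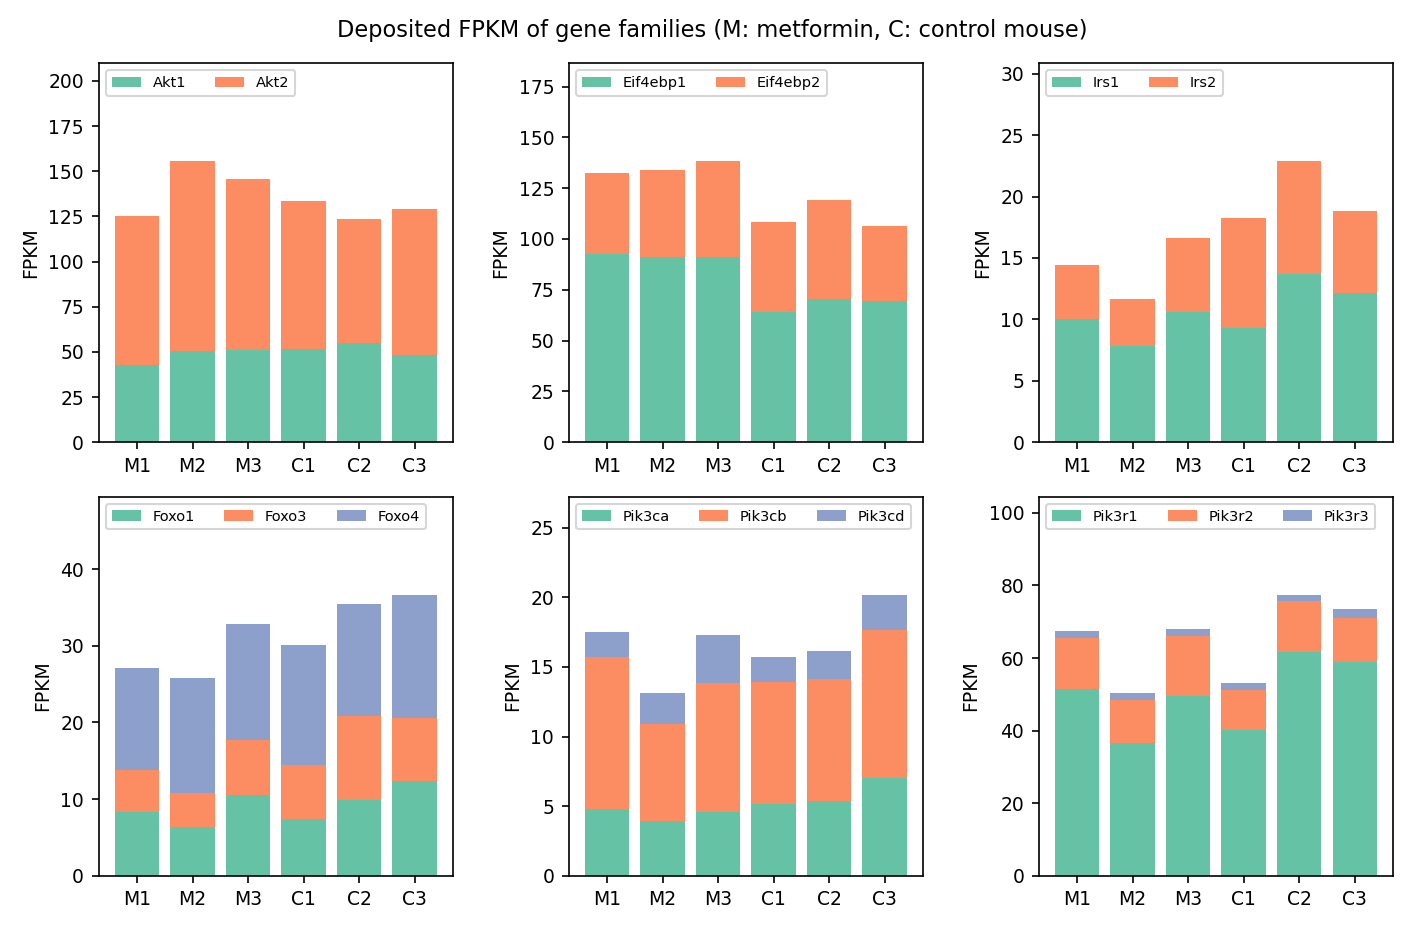
Deposited FPKM of 6 gene families in each mouse, stacked by gene, with metformin-treated mice M1 to M3 left of control mice C1 to C3. Eif4ebp1 is between 91.0 and 92.4 FPKM in the metformin-treated mice and between 64.0 and 70.6 FPKM in the controls, while Eif4ebp2 overlaps between the groups.

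Across the 33 genes the highest mouse by CPM was within the metformin group for 17 and within the control group for 16. Metformin-treated mouse 2 alone was highest for 11 genes, among them Akt1, Akt2, Akt1s1, Gsk3a, Rheb, Rragc and both Eif4ebp genes. In deposited FPKM it stayed highest only for Akt2, Akt1s1 and Gsk3a of these. Other mice were then highest for Akt1, Rheb, Rragc, Rragd, Eif4e, Foxo4 and both Eif4ebp genes. Metformin-treated mouse 2 was the mouse with the highest muscle markers and the lowest epithelial markers. By CPM, control mouse 3 was highest for 7, among them Insr, Foxo1, Pdpk1, Deptor and Rictor, and lowest for 8. The part of these markers was not tested. The 4 members Irs2, Mtor, Rps6kb1 and Foxo3 varied by more than 2-fold between the highest and the lowest of the 6 mice. The median ratio of the highest to the lowest mouse within a group was 1.25 in metformin-treated and 1.31 in control mice.

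**Figure D5:**
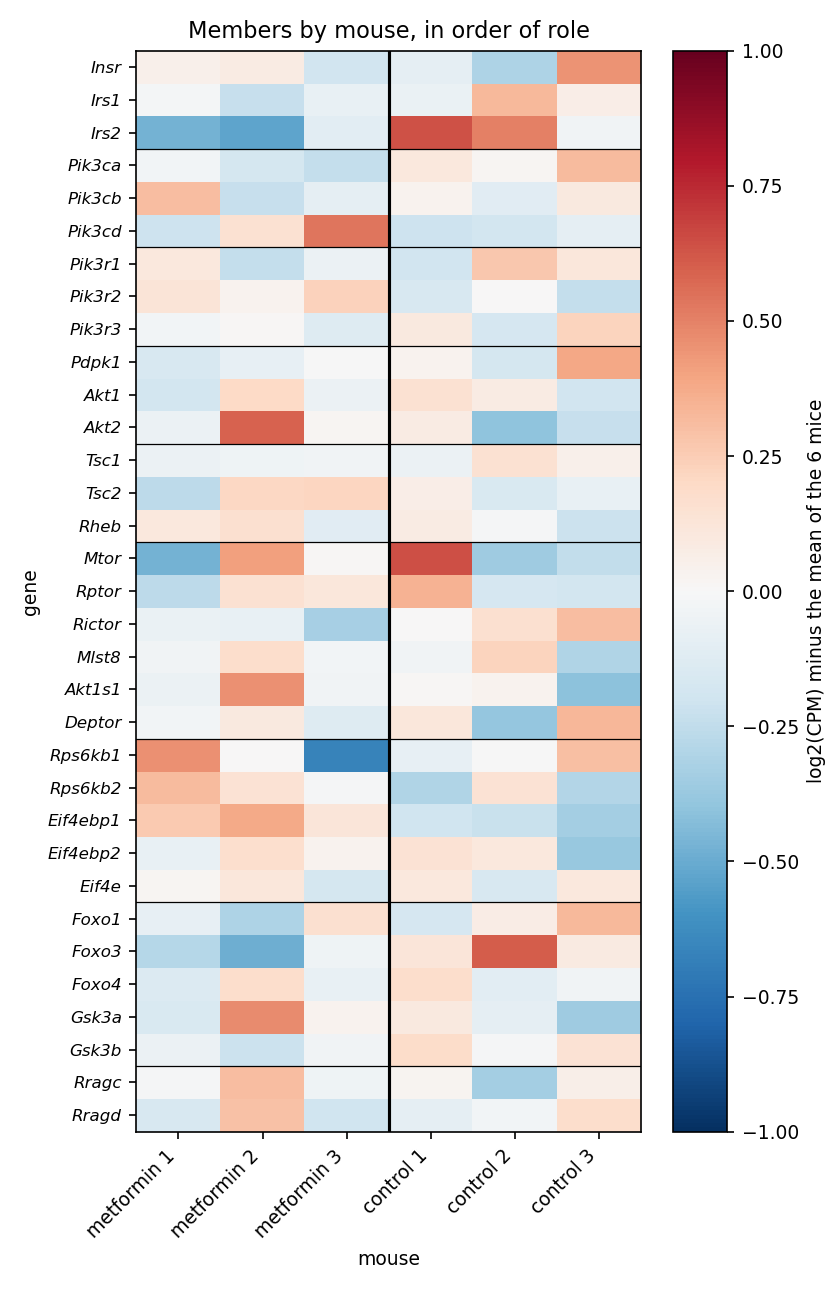
Log2 CPM of the 33 genes (down the page, in order of role) in each mouse minus the mean of the 6 mice, with metformin-treated mice on the left. Red is above and blue below that mean. Foxo3 is below it in the 3 metformin-treated mice and above it in the 3 controls, Eif4ebp1 the reverse, and Irs2 is below it in the 3 metformin-treated mice and in control mouse 3, while Mtor varies within both groups.

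A further 82 pathway genes outside the 33, listed by function, had a median log2 fold change of 0.03, with 34 lower and 48 higher. None was past the thresholds, and at an unadjusted edgeR p under 0.05 there were 3 lower and 3 higher, 7.32% of the 82 beside 7.53% of all tested genes. Sesn3, a sestrin that restrains mTORC1, was at 37.4, 32.3 and 40.2 CPM in metformin-treated mice, against 43.5, 59.2 and 61.5 CPM in control mice (log2 fold change -0.58, SE 0.18, adjusted p = 0.564). The groups did not overlap. Nprl3, a subunit of the GATOR1 complex that inhibits the Rag GTPases, was at 25.4, 23.1 and 25.2 CPM in metformin-treated mice, against 19.2, 21.3 and 15.6 CPM in control mice (log2 fold change 0.39, SE 0.17, adjusted p = 0.661). These were the only 2 of 23 amino acid sensing genes with an unadjusted p under 0.05.

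Among 12 adaptors and inhibitors of the insulin receptor, Sh2b2, the adaptor APS, was at 163, 175 and 135 CPM in metformin-treated mice, against 128, 82.1 and 87.2 CPM in control mice (log2 fold change 0.67, SE 0.22, adjusted p = 0.576). Every metformin-treated mouse was above every control. Enpp1, which inhibits the insulin receptor, overlapped between the groups (log2 fold change -0.92, SE 0.39), and its highest value was 15.2 CPM in control mouse 2. Of 12 other PI3K and AKT family genes, 8 were lower. Pik3c2a, a class II PI3K, was at 32.2, 24.9 and 18.4 CPM in metformin-treated mice, against 35.6, 34.7 and 42.6 CPM in control mice (log2 fold change -0.58, SE 0.22, adjusted p = 0.639).

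Of 8 lipid and AKT phosphatases none had an unadjusted edgeR p under 0.05. The smallest p of the 8 was that of Inpp4b, a phosphatase of the lipid products of PI3K, at 6.67, 8.06 and 6.41 CPM in metformin-treated mice, against 11.2, 7.75 and 12.1 CPM in control mice (log2 fold change -0.55, SE 0.24, adjusted p = 0.661). Its groups overlapped. Of 10 further genes of the TSC and mTOR complexes 9 were higher, with a median log2 fold change of 0.18 and 0 with an unadjusted edgeR p under 0.05. Tbc1d7, the remaining subunit of the TSC complex, was at 10.1, 11.9 and 10.2 CPM in metformin-treated mice, against 9.10, 8.11 and 7.41 CPM in control mice, without overlap (log2 fold change 0.39, SE 0.19, adjusted p = 0.714). Of 17 genes downstream of mTOR or AKT, Trib3, a pseudokinase that binds AKT, was the 1 with an unadjusted p under 0.05. It was at 16.9, 7.39 and 11.1 CPM in metformin-treated mice, against 5.997, 6.643 and 6.501 CPM in control mice (log2 fold change 0.88, SE 0.31, adjusted p = 0.605), with metformin-treated mouse 1 far above the other 5 mice.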

How the data were processed

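The deposited count table held whole-number counts per gene, made by the authors from paired-end reads mapped to GRCm38 after adapter and low-quality reads were removed, without normalization between samples. HISAT2 and StringTie appear in the submitters' processing notes. Their versions, the counting tool, the strandedness and the annotation release are in none of the sources used here. FPKM values deposited by the authors come from the same libraries and were used for levels per length and as an alternative unit.

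Groups came from the sample titles. No batch is given. Counts were tested in R 4.3.3 with edgeR 4.0.16 (filterByExpr, TMM, quasi-likelihood F test, Benjamini-Hochberg over 15925 features), 3 metformin-treated against 3 control mice. DESeq2, the tool of the study, was an alternative. The SE was taken as the size of the log2 fold change over the root of F, and the approximate 95% interval uses the t distribution. An exact permutation test of 1 gene cannot go below p = 0.1. The pipeline was tested on simulated data. Alternatives were DESeq2 1.42.0, voom in limma 3.58.1 with quality weights, 2 other normalizations, 2 other filters, NewGene features left out, a block for replicate number, log2 FPKM with a pseudocount of 1 or 0.1 (mean of at least 1 FPKM) or no filter, and each mouse left out.

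The members and lists were chosen with earlier results of these data known. Genes named with each mouse's value are those with an unadjusted p under 0.05 or groups that do not overlap, Insr, Irs1, Akt1, Mtor and the paralogs beside them, and up to 3 genes per pathway list with the smallest p. Pik3cd and Rps6kb1 were added after their values were seen. GENCODE vM21 (GRCm38) gave positions and the exonic bases shared between genes, and promoter windows came from RefSeq, whose start for Irs2 differs from that of GENCODE. Of 83 symbols in the pathway lists 1, Samtor, had no match. Some results are not reported here.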

Additional observations from a re-analysis of the deposited data

How the results depend on the processing

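No member reached an adjusted p under 0.05 in any of the 17 alternatives. Irs2, Foxo3 and Eif4ebp1 kept their direction in all 17. Past the thresholds were 271 genes, a number that became 519 with DESeq2, 401 with limma-voom and 360 without a filter on low counts. It was 118 with the replicate block, 155 and 174 with limma on log2(FPKM + 1) and log2(FPKM + 0.1), and 98 without a filter on FPKM. With 1 mouse left out it was 107 to 666, the lowest without control mouse 2 and the highest without control mouse 3. The remaining settings gave 253 to 282. The number of members past the thresholds, 1, was 0 with the replicate block and without a filter on FPKM, and 0 to 1 with 1 mouse left out. The members lower at an unadjusted p under 0.05, 2 in number, were 1 with the replicate block and without a filter on FPKM and 1 to 2 with 1 mouse left out, and the members higher, 1 in number, were 0 to 2. The median log2 fold change of the members lay between -0.10 and 0.02.

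The correlations of deviations between same-numbered mice were -0.35, -0.14 and -0.01, and those between mice of different numbers were -0.12 to 0.29. Deviations from a mean of 3 mice are tied to each other, so these values cannot exclude a pairing by replicate number. With the block Irs2 had a log2 fold change of -0.74 and an edgeR adjusted p of 0.873. Directions reversed only for members near 0. Pik3cb was at -0.0099 with the block and at -0.064, -0.072 and -0.064 with log2(FPKM + 1), log2(FPKM + 0.1) and no FPKM filter, and Rptor at 0.0019 with the block. With voom Insr was at 0.053, Mlst8 at -0.0065 and Eif4ebp2 at -0.039. With 1 mouse left out the log2 fold change spanned 0 for 12 members, from -0.22 to 0.18 for Insr, -0.19 to 0.12 for Pik3cb, -0.14 to 0.047 for Akt1, -0.30 to 0.33 for Mtor, -0.10 to 0.19 for Rptor, -0.062 to 0.20 for Mlst8, -0.24 to 0.10 for Deptor, -0.42 to 0.17 for Rps6kb1, -0.077 to 0.16 for Eif4ebp2, -0.11 to 0.047 for Eif4e, -0.12 to 0.066 for Foxo4 and -0.20 to 0.063 for Rragd. The causes were not tested.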

Other observations

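FoxO factors that leave AKT's hold act on target genes, and 18 of 20 such genes were tested, 9 lower and 9 higher, with a median log2 fold change of -0.0026. At an unadjusted edgeR p under 0.05 there were 3, all lower, beside 4.85% of all tested genes. Sesn3 was described above. Fbxo32, the ubiquitin ligase atrogin-1, was at 56.9, 31.9 and 50.1 CPM in metformin-treated mice, against 97.2, 109 and 47.7 CPM in control mice (log2 fold change -0.87, SE 0.34, adjusted p = 0.642). Cited2, a transcriptional coregulator, was at 22.3, 33.7 and 34.6 CPM in metformin-treated mice, against 58.5, 109 and 27.3 CPM in control mice (log2 fold change -1.11, SE 0.46, adjusted p = 0.652). In both genes control mouse 3 fell between the lowest and highest metformin-treated mouse, apart from the other controls. Cdkn1b, the CDK inhibitor p27, was at 46.5, 48.9 and 45.1 CPM in metformin-treated mice, against 53.2, 66.1 and 56.1 CPM in control mice, without overlap (log2 fold change -0.32, SE 0.15, edgeR adjusted p = 0.681). Igfbp1 and G6pc, targets known from liver, failed the filter for low counts.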
